A study of Mus musculus with 6 samples.

Results

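The genes described here encode the machinery that copies DNA: 50 named genes for the licensing and firing of replication origins, for the enzymes of the replication fork and for the supply of nucleotides to it. They were chosen by name and not by their values, but with earlier results of these data known. All 50 are among the 46963 genes of the count table. Each had counts in every library, from 24 to 6480, and all 50 passed the filter on low counts, as did 14600 genes in all.

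RNA was sequenced from CD43- splenic B-cells, spleen cells from which those carrying CD43, a surface protein that resting B-cells lack, were removed. The 3 genotypes were wt mice and mice that lacked 1 of the enhancers of the immunoglobulin heavy chain locus, either Eμ (with its matrix attachment regions) or the 3′RR, and all mice had a 129 background, were at least 8 weeks old and were of both sexes. For each genotype there was 1 library of resting B-cells and 1 of B-cells stimulated for 48 hours with 5 μg/ml of lipopolysaccharide (LPS), a bacterial product that makes B-cells divide. Per the labels each library came from 2 pooled mice and the resting cells also spent 2 days in culture, whereas the study's methods give 4 mice in 2 pools per genotype and place the resting cells before culture. Both deletions were made in the germline and were therefore present in all cells of these mice, and the deleted enhancers are no genes of the table, so that the labels were not checked on the deletions themselves. The libraries held between 9111974 counts over genes (3′RR-deficient after LPS) and 21998587 (wt after LPS).

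Resting B-cells sit outside the cell cycle and enter it when stimulated. Before S phase, the origin recognition complex (ORC), Cdc6 and Cdt1 load the MCM2-7 helicase on DNA. Kinases then turn the helicase on with Cdc45 and GINS, and DNA polymerases, the sliding clamp PCNA and its loader RFC, the single-strand binding protein RPA and the enzymes that join Okazaki fragments make the new strands, from nucleotides that ribonucleotide reductase and its partners supply. Many of these genes are known targets of E2F transcription factors.

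LPS raised most of the replication genes in all 3 genotypes. In an additive edgeR quasi-likelihood model of genotype and culture state over the 6 libraries, with Benjamini-Hochberg adjustment at 0.05, 44 of the 50 genes were higher after LPS and 0 were lower. Among the 14600 genes tested, 20.7% were called higher and 20.4% lower. The median log2 fold change of the 50 genes was 2.18, against -0.03 over all genes tested. Levels are given as CPM, counts brought to a common library total after edgeR's TMM scaling, and the summed CPM of the 50 genes were 970.1, 893 and 1084 in resting wt, Eμ-deficient and 3′RR-deficient B-cells and 4104, 3175 and 4287 after LPS. The 3 sums after LPS all lay above the 3 resting sums. The error of this model measures how far the 6 libraries depart from additive effects and does not measure how mice differ. In bulk RNA, fewer cells of a type and less RNA per cell cannot be told apart.

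The same picture was seen gene by gene. For 44 genes, the 3 libraries of LPS-stimulated cells all lay above the 3 resting ones, which was so for 25.7% of the genes tested, and for 0 genes they all lay below (26.1% of the genes tested). The 2 sets of 44 differ in 1 gene each: Rfc1 did not overlap but was not called, and Pold1 overlapped but was called. Within genotypes, where each ratio rests on 1 library per state and has no replicate check, 42 genes were at least 2-fold higher after LPS in wt cells, 42 in Eμ-deficient cells and 41 in 3′RR-deficient cells, against 22.7%, 17.5% and 18.7% of the genes tested. In all 3 genotypes at once, 38 of the 50 genes were at least 2-fold higher, against 9.8% of the genes tested. The median log2 ratios were 2.29, 1.97 and 1.94 in wt, Eμ-deficient and 3′RR-deficient cells.

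**Figure D1:**
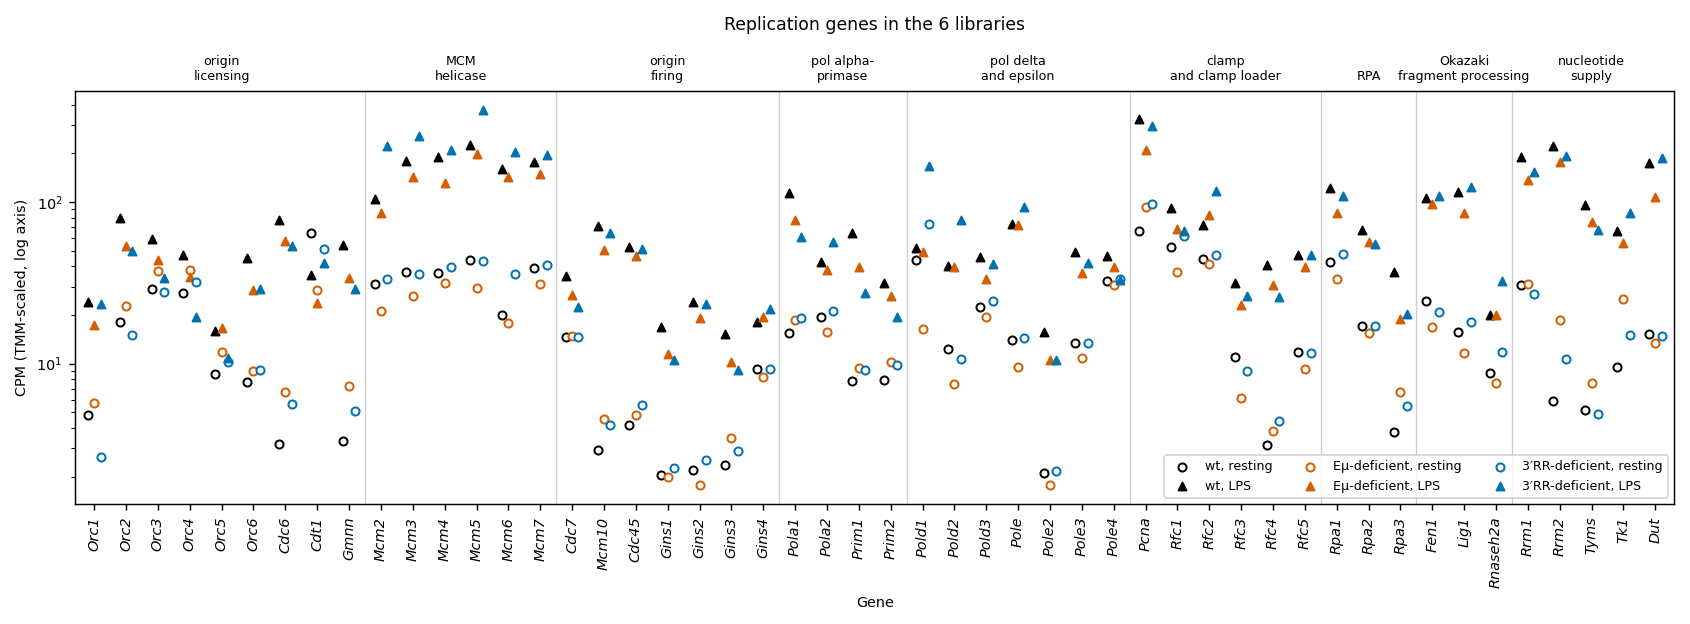
CPM of the 50 replication genes (log axis) in the 6 libraries, grouped by role, with open circles for resting and filled triangles for LPS-stimulated cells and 1 colour per genotype. For 44 genes all 3 triangles lie above all 3 circles, and Cdt1 is the gene with the circle above the triangle in each genotype.

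Values of single genes follow in the order wt, Eμ-deficient and 3′RR-deficient. Among the 9 licensing genes, 5 rose. Cdc6, the ATPase that joins ORC to load the helicase, had 3.21, 6.71 and 5.66 CPM in resting cells and 77.4, 57.2 and 53.5 CPM after LPS. Its 3 stimulated values were far above the 3 resting ones, a log2 fold change of 3.62 ± 0.34 (SE), adjusted p = 0.000112, or 12.3-fold. The next largest rise was that of Gmnn (2.89 ± 0.37), which encodes geminin, the inhibitor of Cdt1. Orc1 (2.35 ± 0.33), Orc6 (1.96 ± 0.27) and Orc2 (1.70 ± 0.25) also rose.

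The other ORC subunits did not pass the test. Orc3 had 29.1, 37.3 and 27.9 CPM in resting cells and 58.7, 43.8 and 34.1 CPM after LPS, with a log2 fold change of 0.51 ± 0.24 (SE), adjusted p = 0.122. Its Eμ-deficient resting level lay above its 3′RR-deficient level after LPS. Orc5 had 8.58, 11.9 and 10.3 CPM in resting cells and 15.9, 16.6 and 10.8 CPM after LPS, with 0.49 ± 0.27 (SE), adjusted p = 0.172. Here the resting Eμ-deficient level exceeded the stimulated 3′RR-deficient one. Orc4 had 27.3, 38.2 and 31.98 CPM in resting cells and 47.2, 34.2 and 19.5 CPM after LPS, with -0.02 ± 0.30 (SE), adjusted p = 0.958. Its level after LPS was above the resting one in wt cells and below it in both mutants, and the sign of its fold change turned in 6 of 13 alternative analyses. With the trend of each library on the GC content of transcripts removed, its log2 ratios of LPS to resting were 0.18, 0.097 and 0.015, so that both mutants turned direction.

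Cdt1, which brings the MCM helicase to ORC, was the gene with the lowest fold change. It had 64.2, 28.7 and 51.01 CPM in resting cells and 35.1, 23.8 and 41.99 CPM after LPS. Each genotype had less Cdt1 after LPS than at rest, by log2 ratios of -0.87 (95% interval -1.01 to -0.73), -0.27 (95% interval -0.50 to -0.040) and -0.28 (95% interval -0.45 to -0.11), where the intervals cover counting error only. The states overlapped, since the resting Eμ-deficient level was below 2 of the stimulated ones, and the difference was not called (-0.48 ± 0.23 (SE), adjusted p = 0.130). Per kb of transcript, the ratio of Cdt1 to Gmnn RNA was 9.96, 2.02 and 5.12 in resting cells and 0.335, 0.362 and 0.749 after LPS. The 3 stimulated ratios thus lay below the 3 resting ones.

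All 6 genes of the MCM2-7 helicase, which unwinds DNA ahead of the fork, rose, within a narrow range of log2 fold changes. Mcm6 rose most, with 19.9, 17.9 and 35.6 CPM in resting cells and 159, 143 and 204 CPM after LPS. Mcm2 rose least, with 31.04, 21.2 and 33.3 CPM in resting cells and 104, 85.5 and 222 CPM after LPS. In both genes the states were separate, with log2 fold changes of 2.84 ± 0.25 (SE), adjusted p = 8.65e-05, and 2.17 ± 0.27 (SE), adjusted p = 0.000388. Mcm5 (2.74 ± 0.27), Mcm3 (2.51 ± 0.25), Mcm4 (2.29 ± 0.24) and Mcm7 (2.24 ± 0.23) lay between them.

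All 7 origin firing genes rose, over a wider range. Mcm10, a factor needed to turn the loaded helicase into a moving fork, had 2.93, 4.57 and 4.17 CPM in resting cells and 70.5, 50.8 and 64.5 CPM after LPS. This was a log2 fold change of 4.00 ± 0.29 (SE), adjusted p = 5.32e-05, or 15.99-fold, and the states were far apart. Cdc45 (3.37 ± 0.25) and the GINS subunits Gins2 (3.35 ± 0.27), Gins1 (2.60 ± 0.31) and Gins3 (1.97 ± 0.33), all parts of the active helicase, followed, whereas Gins4 rose less (1.14 ± 0.24). Cdc7, the kinase that phosphorylates the MCM helicase, had 14.7, 14.9 and 14.7 CPM in resting cells and 34.6, 26.8 and 22.3 CPM after LPS. Its states did not overlap either, but the rise was the smallest of the group (0.89 ± 0.24 (SE), adjusted p = 0.0155).

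**Figure D2:**
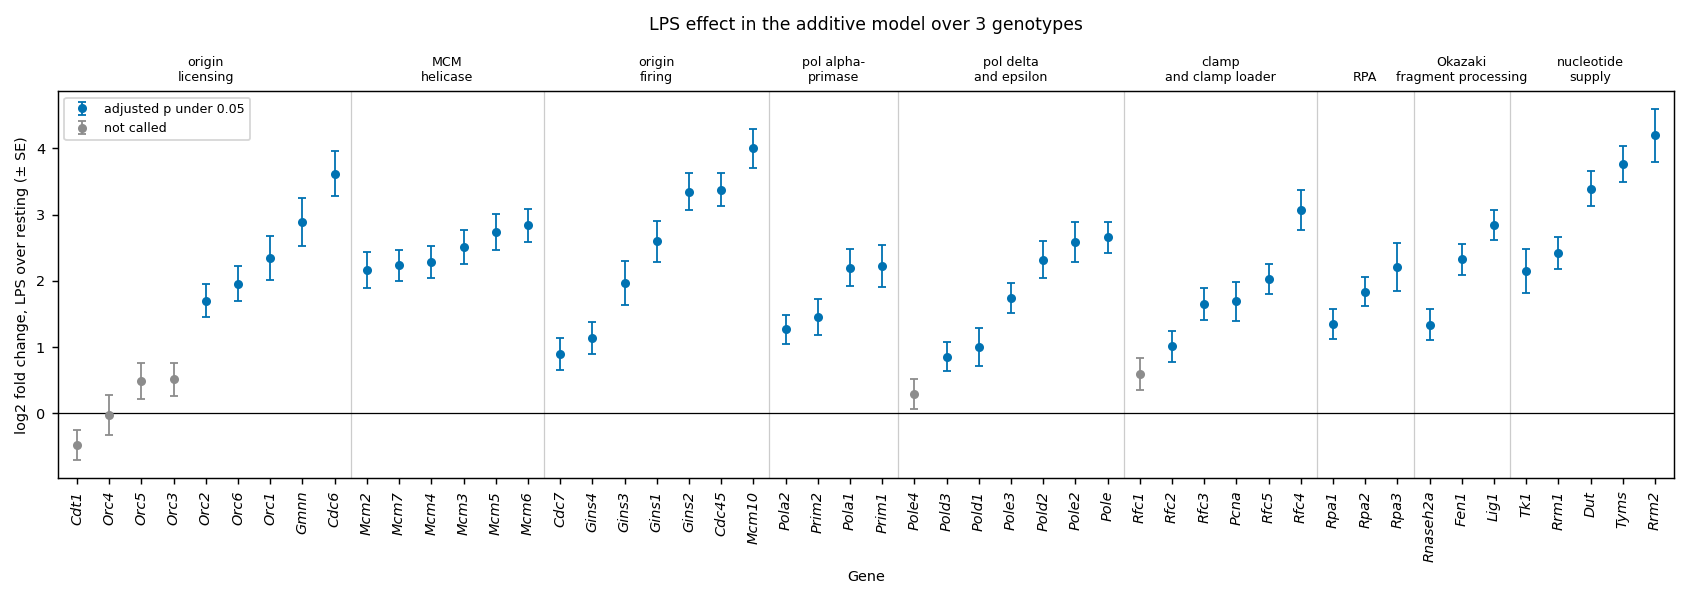
Log2 fold change of LPS-stimulated over resting cells for each of the 50 genes in the additive model, with its SE, ordered within each role. The 44 genes with an adjusted p under 0.05 are blue and all lie above 0, from Pold3 (0.86) to Rrm2 (4.20), and the 6 grey genes lie between -0.48 (Cdt1) and 0.60 (Rfc1).

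The 4 genes of polymerase α-primase, which lays down the primers of new strands, all rose. Prim1, its catalytic primase subunit, had 7.86, 9.37 and 9.20 CPM in resting cells and 64.1, 39.6 and 27.3 CPM after LPS. Pola2, its regulatory subunit, had 19.3, 15.8 and 21.3 CPM in resting cells and 42.3, 37.8 and 56.5 CPM after LPS. The log2 fold changes were 2.23 ± 0.31 (SE), adjusted p = 0.000668, and 1.27 ± 0.22 (SE), adjusted p = 0.00201, with no overlap between states in either gene. Pola1, the catalytic polymerase subunit (2.20 ± 0.28), and Prim2 (1.45 ± 0.27) lay between them.

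Of the 7 genes of polymerases δ and ε, which extend the lagging and the leading strand, 6 rose. Pole, the catalytic subunit of polymerase ε, had 14.1, 9.59 and 14.4 CPM in resting cells and 73.2, 71.9 and 93.6 CPM after LPS, a log2 fold change of 2.66 ± 0.24 (SE), adjusted p = 9.19e-05. Pole4, a small histone-fold subunit of the same enzyme, had 32.4, 30.8 and 33.5 CPM in resting cells and 46.3, 39.9 and 33.1 CPM after LPS and was not called (0.29 ± 0.23 (SE), adjusted p = 0.326). Its 3′RR-deficient level was the same within counting error in both states, with a log2 ratio of -0.016 (95% interval -0.22 to 0.18). Pole2 (2.58 ± 0.30), Pold2 (2.32 ± 0.28), Pole3 (1.74 ± 0.22) and Pold3 (0.86 ± 0.22) rose with their states apart. Pold1, the catalytic subunit of polymerase δ, had 43.5, 16.5 and 72.9 CPM in resting cells and 51.7, 48.8 and 166 CPM after LPS. The resting 3′RR-deficient level was above 2 of the stimulated ones, and the rise was called (1.00 ± 0.29 (SE), adjusted p = 0.0214), as it was in 8 of 13 alternative analyses.

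Of the clamp and its loader, 5 of 6 genes rose. Pcna, the clamp itself, was the most abundant replication RNA per kb in both states, with 66.1, 92.8 and 96.8 CPM in resting cells and 325, 211 and 293 CPM after LPS and a log2 fold change of 1.69 ± 0.29. A near-identical copy, Pcna-ps2, held between 1.27% and 14.3% of the counts of both, so that the level of Pcna is uncertain by that much. Rfc4 rose most among the loader genes, with 3.15, 3.84 and 4.41 CPM in resting cells and 40.6, 30.6 and 25.7 CPM after LPS. Rfc1, the large subunit of the loader, had 52.8, 36.7 and 62.04 CPM in resting cells and 91.3, 68.5 and 66.4 CPM after LPS. The states of both genes were apart, but the fold change of Rfc1 did not pass the test (0.60 ± 0.25 (SE), adjusted p = 0.0793) and that of Rfc4 did (3.07 ± 0.30 (SE), adjusted p = 0.000129). Rfc5 (2.03 ± 0.22), Rfc3 (1.65 ± 0.24) and Rfc2 (1.01 ± 0.23) rose.

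The 3 RPA genes and the 3 genes for the processing of Okazaki fragments all rose. Rpa3, the smallest subunit, had 3.76, 6.64 and 5.51 CPM in resting cells and 36.7, 18.8 and 20.2 CPM after LPS, and Rpa1, the largest, had 42.3, 33.5 and 47.8 CPM in resting cells and 122, 85.6 and 109 CPM after LPS. These were log2 fold changes of 2.21 ± 0.36 (SE), adjusted p = 0.00151, and 1.35 ± 0.22 (SE), adjusted p = 0.00161, with Rpa2 between them (1.84 ± 0.22). Lig1, the ligase that seals the fragments, had 15.7, 11.7 and 18.1 CPM in resting cells and 116, 85.7 and 125 CPM after LPS. Rnaseh2a, the catalytic subunit of an enzyme that removes RNA from DNA, had 8.80, 7.60 and 11.8 CPM in resting cells and 19.9, 19.9 and 32.3 CPM after LPS. The log2 fold changes were 2.84 ± 0.23 (SE), adjusted p = 6.78e-05, and 1.34 ± 0.24 (SE), adjusted p = 0.00214, and the flap nuclease gene Fen1 had 2.33 ± 0.23. No state overlapped with the other in any of these 6 genes.

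Nucleotide supply was the group with the highest median log2 fold change, 3.39 over 5 genes, against medians from 1.67 (clamp and loader) to 2.60 (origin firing) in the other groups. Rrm2, the small subunit of ribonucleotide reductase, had 5.92, 18.7 and 10.7 CPM in resting cells and 222, 176 and 193 CPM after LPS. This was the largest rise of the 50 genes (4.20 ± 0.40 (SE), adjusted p = 0.000120, or 18.3-fold), although its 3 resting levels were spread over 5.92 to 18.7 CPM. Rrm1, the large subunit, varied less between the resting libraries, with 30.7, 31.3 and 27.1 CPM in resting cells and 190.1, 137 and 153 CPM after LPS and a log2 fold change of 2.42 ± 0.24. Tyms, thymidylate synthase (3.76 ± 0.28), and Dut, which removes dUTP (3.39 ± 0.26), also rose, with larger fold changes than Rrm1. Thymidine kinase Tk1, the gene of this group that rose least, had 9.57, 25.1 and 15.1 CPM in resting cells and 66.3, 56.1 and 85.5 CPM after LPS, which was 2.15 ± 0.33 (SE), adjusted p = 0.00112. Part of the longest Tyms transcript matched 10 other genes, and multi-mapping reads were kept. All counts of these 10 genes together, reads of their own included, made up 39.8% to 93.0% of the sum of theirs and those of Tyms, so that the level and the rise of Tyms are uncertain.

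The window before the transcription start was read for the members that RefSeq gives one for (GRCm38.p6, 250 bases before to 50 after the start), which were 42 of 50. Words of the E2F motif (TTTCCCGC, TTTGGCGC, TTTCGCGC or TTTGCCGC on either strand, which can overlap each other) were found for 16 of the 42 genes (38.1%), against 4.82% of 9441 tested genes with a window and 2.6% of all 27025 genes with one. The NF-Y word CCAAT, on either strand, was found for 24 genes (57.1%, against 43.1% of tested genes), the GC box GGGCGG for 32 (76.2%, against 67.4%), and the CHR words TTTGAA or TTCGAA for 8 (19.0%, against 16.8%). E2F words were found for 13 of the 36 genes with a window that rose (36.1%) and for 3 of the 6 that did not pass the test (Cdt1, Orc3 and Pole4). The following windows, of 180 bases ending at the start and read 5′ to 3′, show the words in capitals (E2F words and CCAAT with its reverse complement ATTGG). Mcm6 and Mcm5 are shown for rising genes with several E2F words, Cdc6 and the strongly rising Mcm10 and Rrm2 for windows with 1 or 0 of them, and Orc3 and Pole4 for genes with an E2F word that did not pass the test. Their positions are chr1:128359706-128359885 (-), chr8:75109329-75109508 (+), chr11:98907971-98908150 (+), chr2:5012792-5012971 (-), chr12:24708074-24708253 (+), chr4:34614943-34615122 (-) and chr6:82652866-82653045 (-), with the strand in parentheses. The starts are those of RefSeq. The windows of Cdc6 and Pole4 lie inside their GENCODE genes, which begin at chr11:98907801 and chr6:82705365, and the sequence before those starts was not read.
Mcm6: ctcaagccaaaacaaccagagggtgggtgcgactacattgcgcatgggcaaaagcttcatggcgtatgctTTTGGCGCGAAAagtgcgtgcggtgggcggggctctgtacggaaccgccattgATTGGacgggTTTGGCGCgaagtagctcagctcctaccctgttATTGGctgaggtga
Mcm5: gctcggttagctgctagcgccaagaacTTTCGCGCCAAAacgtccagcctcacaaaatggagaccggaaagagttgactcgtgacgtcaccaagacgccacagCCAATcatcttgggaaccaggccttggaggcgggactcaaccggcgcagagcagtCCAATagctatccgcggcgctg
Cdc6: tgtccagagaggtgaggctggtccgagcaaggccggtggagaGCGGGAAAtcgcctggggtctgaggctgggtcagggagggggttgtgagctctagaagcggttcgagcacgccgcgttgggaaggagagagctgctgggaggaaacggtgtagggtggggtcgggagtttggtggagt
Mcm10: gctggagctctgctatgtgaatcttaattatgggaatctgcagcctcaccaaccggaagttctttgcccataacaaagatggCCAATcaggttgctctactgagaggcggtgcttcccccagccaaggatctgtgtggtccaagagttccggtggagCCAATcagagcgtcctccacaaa
Rrm2: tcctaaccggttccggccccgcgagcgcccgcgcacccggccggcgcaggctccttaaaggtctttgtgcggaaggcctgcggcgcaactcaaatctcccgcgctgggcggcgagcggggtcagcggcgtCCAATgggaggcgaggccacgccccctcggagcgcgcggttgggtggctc
Orc3: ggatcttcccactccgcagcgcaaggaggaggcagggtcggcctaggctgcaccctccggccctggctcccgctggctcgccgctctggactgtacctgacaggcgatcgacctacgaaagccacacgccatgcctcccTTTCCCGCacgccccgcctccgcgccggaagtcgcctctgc
Pole4: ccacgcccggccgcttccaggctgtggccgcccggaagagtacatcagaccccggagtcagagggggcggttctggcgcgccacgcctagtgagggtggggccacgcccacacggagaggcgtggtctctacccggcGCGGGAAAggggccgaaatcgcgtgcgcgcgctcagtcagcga
A match is a run of letters and not a binding site, and the 180-base windows of Mcm10 and Rrm2, with 2 and 1 CCAAT words, hold 0 E2F words although these genes had the largest rises.

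Levels of subunits of 1 complex were compared per kb of the longest coding transcript. In resting cells the 4 GINS genes were unequal, with the highest subunit (Gins4) 12.1, 13.5 and 10.5 times the lowest (Gins2). Such spreads depend on the transcript lengths used, here 3900 bases for Gins2 and 1087 for Gins1. In CPM not divided by length, Gins2 had 2.21, 1.77 and 2.54 and Gins1 had 2.05, 1.99 and 2.25. Gins2 was thus not the lowest in wt and 3′RR-deficient cells. Gins4 had 9.24, 8.26 and 9.25 CPM. After LPS the highest was 2.58, 3.50 and 4.46 times the lowest. The spread narrowed in each genotype also for polymerase ε, from 14.8, 16.8 and 15.0 times to 2.93, 3.66 and 3.77 times, for ORC, from 7.92, 8.59 and 13.9 times to 4.08, 3.404 and 4.14 times, and for RFC, from 4.51, 2.76 and 3.79 times to 2.20, 1.69 and 1.67 times. It did not narrow in every complex: for RPA it widened in each genotype, from 1.68, 1.502 and 1.15 times to 2.28, 1.86 and 1.41 times, and for polymerase α-primase it moved little, from 2.74, 1.88 and 2.45 times to 2.54, 1.88 and 2.38 times. MCM2-7 started close together and stayed so, with 2.90, 2.55 and 1.68 times at rest and 2.16, 2.31 and 2.33 times after LPS. In GINS and polymerase ε the lowest resting subunit per kb had the largest or next to largest fold change, and the highest, Gins4 and Pole4, the smallest. The resting level is also the denominator of the fold change, so that this pattern is partly built into the values. These ratios were not tested.

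**Figure D3:**
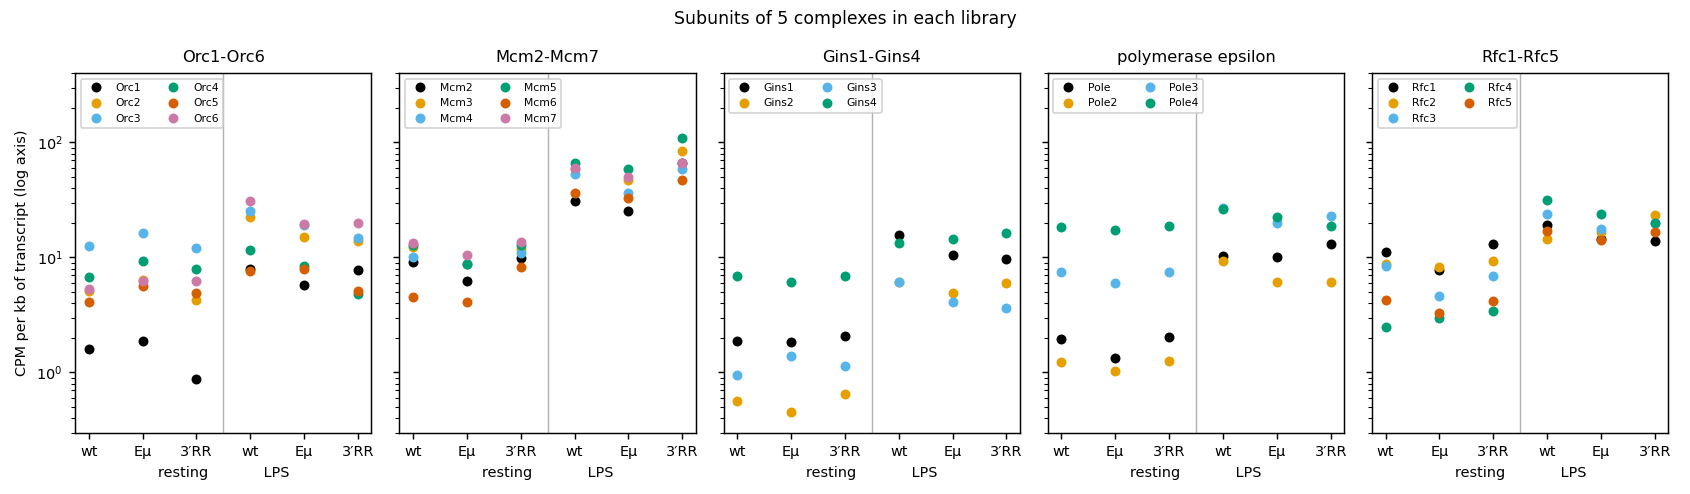
CPM per kb of transcript (log axis) of the subunits of 5 complexes in the 6 libraries, resting on the left and LPS on the right of each panel, with 1 colour per subunit. In the GINS and polymerase ε panels the subunits lie 10.5 to 16.8 times apart at rest and 2.58 to 4.46 times apart after LPS, and the 6 MCM genes lie within 1.68 to 2.90 times throughout.

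In the order of levels per kb, averaged over the genotypes, Pcna came first in resting cells (56.2 ± 10.998 CPM per kb, SD over 3 libraries) and after LPS (182 ± 38.9). Rrm2 was 30th of 50 at rest (5.37 ± 2.95) and second after LPS (89.8 ± 10.8). Dut (80.0 ± 21.9) and Mcm5 (78.3 ± 27.3) followed and did not differ from Rrm2 beyond their spread. Cdt1 was second at rest (21.9 ± 8.21) and 35th after LPS (15.4 ± 4.20). At rest, Pole4 (18.2 ± 0.74) and Orc3 (13.7 ± 2.21) did not differ from Cdt1 beyond their spread, so that its resting rank is uncertain. Its own 2 means did not differ beyond their spread either.

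Other genes of replication and division were taken from lists, which were also chosen with earlier results of these data known. Of 21 accessory fork and origin factors, 18 rose, most of all Clspn, an adaptor of the checkpoint kinase Chk1 (log2 fold change 3.42 ± 0.30 (SE), adjusted p = 8.22e-05), and Pold4 was lowest and not called (-0.18 ± 0.24, adjusted p = 0.580). Of 11 chromatin assembly and maintenance genes, 10 rose, with Uhrf1 highest (3.59 ± 0.26, adjusted p = 5.28e-05) and Tonsl lowest and not called (0.55 ± 0.23, adjusted p = 0.0782). Of 19 further genes of nucleotide metabolism, 15 rose. In this list 1 gene fell, Tk2, the thymidine kinase of mitochondria (-2.27 ± 0.24, adjusted p = 0.000193). Of the mitosis list, 16 of 16 rose, from Aurka (2.61 ± 0.25, adjusted p = 0.000119) to Cdc20 (4.09 ± 0.28, adjusted p = 5.28e-05).

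Between genotypes, the additive model called 0 of the 50 genes for Eμ-deficient against wt cells (0.877% of tested genes higher, 0.267% lower) and 0 for 3′RR-deficient against wt cells (0.185% higher, 0.575% lower). DESeq2 also called 0 in each. In the additive edgeR model, 1221 (Eμ) and 825 (3′RR) of the 14600 tested genes had an unadjusted p under 0.05. Among the 50 genes, 1 did in each comparison. For Eμ this was Cdt1, with a log2 fold change of -0.87 ± 0.29 (SE), adjusted p = 0.293, and for the 3′RR it was Pold1, with 1.17 ± 0.35, adjusted p = 0.397. Without the filter on low counts, Pold1 was called. These tests do not show that the levels were alike. Both mutants were compared with the same wt libraries.

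Single libraries, with 1 per genotype and state and no replicate check, differed as follows. In resting Eμ-deficient cells, 4 genes were at least 2-fold above wt (12.0% of tested genes were) and 2 at least 2-fold below (6.2%). The 4 were Rrm2, with a log2 ratio of 1.66 (95% interval 1.33 to 2.002), Tk1 with 1.39 (95% interval 1.12 to 1.66), Gmnn with 1.14 (95% interval 0.66 to 1.63) and Cdc6 with 1.06 (95% interval 0.57 to 1.57). The 2 lower ones were Pold1 with -1.40 (95% interval -1.62 to -1.19) and Cdt1 with -1.16 (95% interval -1.33 to -0.996). The median over the 50 genes was -0.13, against -0.01 over all tested genes.

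The summed levels of mitosis genes and of erythroid markers were also higher in this library than in the other resting ones. The 16 mitosis genes summed to 114, 270.3 and 197 CPM in resting wt, Eμ-deficient and 3′RR-deficient cells and to 1744, 1606 and 1816 CPM after LPS. The 10 erythroid markers found in the table, of 11 listed, summed to 3449, 20016 and 3927 CPM in resting cells and to 355, 838 and 306 CPM after LPS, and 8 of them were called higher in Eμ-deficient than in wt cells. Of the 10, 9 fell after LPS and 1 rose, Tfrc, the transferrin receptor, which dividing cells of other kinds also express. None of the 10 was at 0 in a resting library, and after LPS 3 were at 0 in the wt library and 1 in each mutant library. The sum of plasma cell markers was higher in this library as well, with 549.6, 2176 and 583 CPM in resting cells. So were the sums of myeloid markers, with 138, 312 and 132 CPM, and of T-cell markers, with 29.99, 52.9 and 32.8 CPM. B-cell markers summed to 4810, 7004 and 3802 CPM, but only 2 of the 7 were above wt in this library (median log2 ratio -0.52). Among the plasma cell markers, Jchain, the joining chain of secreted IgM and IgA, had 114, 1691 and 168 CPM. NK-cell markers had 12.01, 12.5 and 8.87 CPM. The part of these cells in the resting levels of Rrm2, Tk1, Gmnn and Cdc6 was not tested. Without the resting Eμ-deficient library, the stimulated one has no partner, and the LPS effect rests on wt and 3′RR-deficient cells. The median log2 fold change of the 50 genes was then 2.22, as it was without both Eμ-deficient libraries. The loss of this library's cells and the loss of a pair cannot be told apart.

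**Figure D4:**
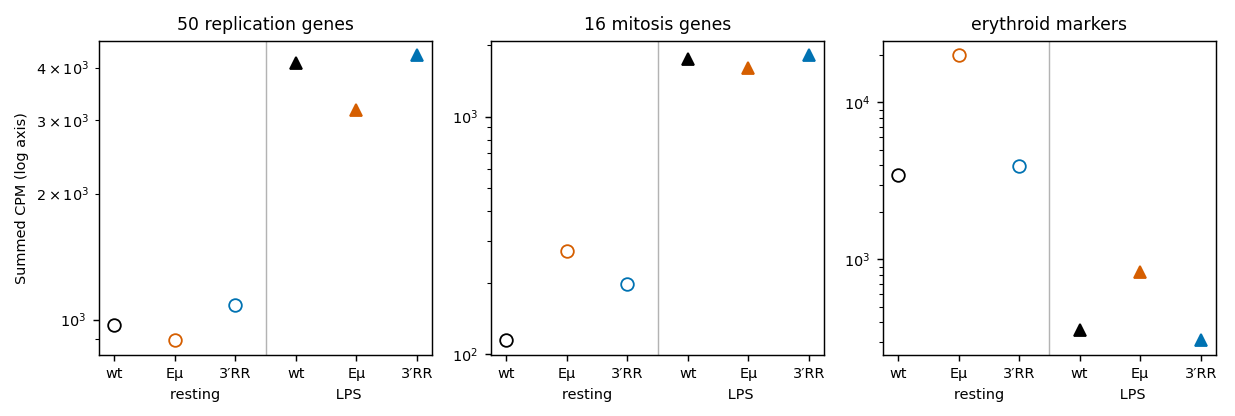
Summed CPM (log axes) of the 50 replication genes, of 16 mitosis genes and of 10 erythroid markers in the 6 libraries, with open circles for resting and triangles for LPS-stimulated cells. The replication sum is 893 to 1084 CPM at rest and 3175 to 4287 CPM after LPS, and the erythroid sum of the resting Eμ-deficient library, 20016 CPM, stands apart from the other 5 libraries (306 to 3927 CPM).

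In resting 3′RR-deficient cells, 0 of the 50 genes were 2-fold above or below wt (5.14% and 4.12% of tested genes were), and the median log2 ratio was 0.14. The log2 ratios ran from -0.87 for Orc1 (4.81 CPM in wt and 2.64 CPM in 3′RR-deficient cells) to 0.85 for Rrm2. Mcm6 had 0.84 (95% interval 0.66 to 1.03). The counting intervals of 32 of the 50 ratios spanned 0, a share that was not counted over all tested genes.

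After LPS, Eμ-deficient cells had less RNA than wt cells for 47 of the 50 genes, but 0 passed 2-fold in either direction (8.38% of tested genes were higher, 4.09% lower). The median log2 ratio was -0.41, against -0.06 over all tested genes, of which 6611 of 14600 were above wt. The count of lower genes was 43 with scaling by total counts and 47 with the GC trend removed. The counting intervals of 42 of the 50 genes lay below 0. They cover counting error only, and the share over all tested genes was not counted. The sum of each list of cell markers was also higher in this library than in wt: erythroid 838 against 355 CPM, plasma cell 1576 against 611, T-cell 20.1 against 6.28, myeloid 27.03 against 14.9, NK-cell 3.81 against 0.402 and B-cell 8984 against 5152. Only 2 of the 7 B-cell markers were above wt, however, with a median log2 ratio of -0.13. The part of cells with these markers in the result was not tested. With 1 library per genotype, a shift of this size cannot be set against the spread between mice.

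In LPS-stimulated 3′RR-deficient cells, 2 genes were at least 2-fold above wt (13.9% of tested genes were) and 2 at least 2-fold below (12.5%). Pold1 had 1.68 (95% interval 1.57 to 1.80) and Mcm2 1.09 (95% interval 1.002 to 1.18), and Orc4 had -1.27 (95% interval -1.52 to -1.04) and Prim1 -1.23 (95% interval -1.44 to -1.03). These ratios followed the GC content of the transcripts, which runs from 36.8% to 60.7% over the 50 genes. Spearman's rho between log2 ratio and GC content was 0.79 over the 50 genes, as a description of genes in 1 pair of libraries, and 0.57 over 14358 tested genes. With the GC trend removed from each library, rho was 0.15, the SD of the 50 ratios fell from 0.60 to 0.37, and the ratios were 1.01 for Pold1, 0.62 for Mcm2, -0.05 for Orc4 and -0.76 for Prim1. Pold1 thus stayed 2-fold higher and the other 3 did not pass 2-fold. Of the 50 genes, 18 were above wt and 32 below, and the median log2 ratio was -0.16 (-0.07 with the GC trend removed). Over all tested genes the median was 0.03, with 7453 of 14600 above wt. All 6 MCM2-7 genes were above wt, with a median of 0.44, and of 0.50 with the GC trend removed. Other roles ran lower: the medians were -0.64 for origin licensing (1 of 9 genes above wt) and -0.81 for polymerase α-primase (1 of 4). With the GC trend removed these 2 medians were -0.22 and -0.35.

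In the resting Eμ-deficient library the relation ran the other way, with a rho of -0.57 over the 50 genes, and -0.23 with the trend removed. The ratios of Pold1 and Cdt1 were then -0.85 and -0.66, below 2-fold, and those of Rrm2, Tk1, Gmnn and Cdc6 were 1.58, 1.77, 1.22 and 1.12. The other 2 comparisons had a rho of -0.12 (3′RR-deficient, resting) and 0.48 (Eμ-deficient, LPS), and 0.08 in each with the trend removed.

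**Figure D5:**
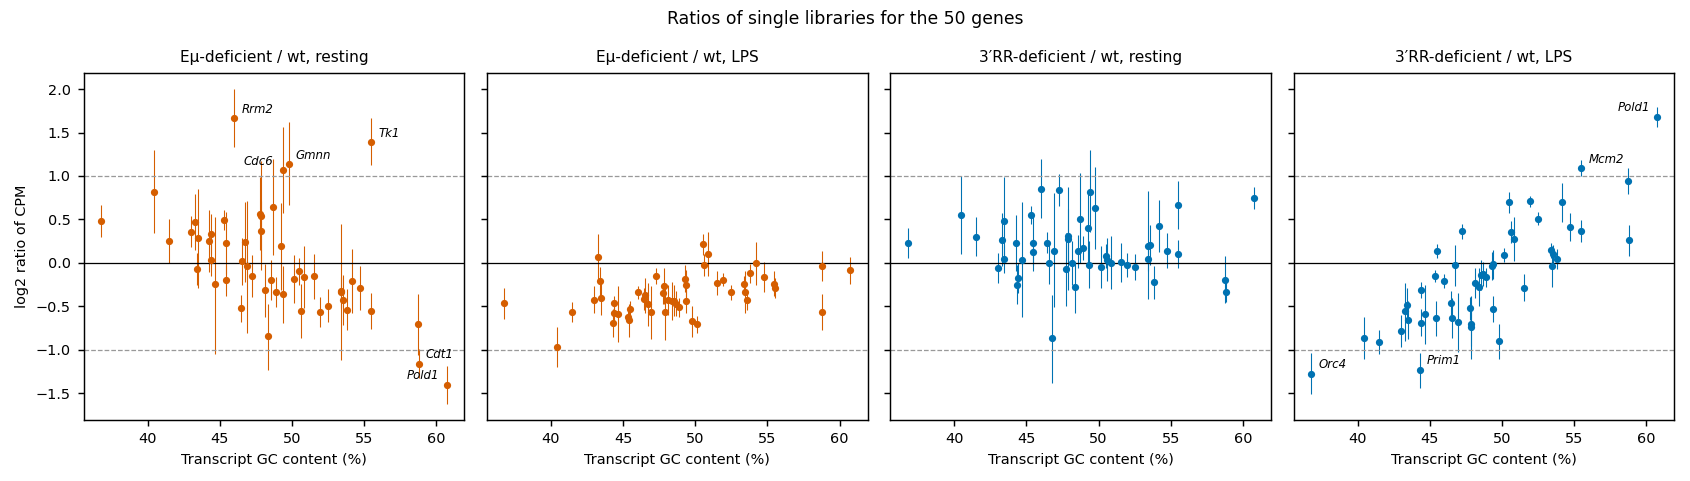
Log2 ratio of each mutant library to the wt library of the same state for the 50 genes against transcript GC content (%), with 95% intervals for counting error as bars and dashed lines at 2-fold. Ratios rise with GC content for 3′RR-deficient cells after LPS (rho 0.79), fall with it in the resting Eμ-deficient library (rho -0.57), and lie below 0 for 47 of 50 genes between Eμ-deficient and wt cells after LPS.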

How the data were processed

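RNA from CD43- splenic B-cells was measured in 6 libraries, 1 for each genotype and culture state. The authors removed ribosomal RNA, mapped reads to mm10 with STAR 2.4.0a and used featureCounts (Subread 1.4.6-p1) to assign fragments to genes on 1 strand. Reads that map to several places were kept, and the authors deposited the counts without normalization. Groups came from the sample titles. The 92 spike-in RNAs (4.75% to 7.10% of counts) were left out of library sizes. Gene counts per library ran from 9111974 to 21998587.

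Genes that reached 10 counts in 2 or more libraries were tested with edgeR 4.0.16 (R 4.3.3): TMM scaling, an additive quasi-likelihood model of genotype and state, Benjamini-Hochberg adjustment over all genes tested and a threshold of 0.05. The smallest and largest changes of each role, each gene not called and each gene called between genotypes were to be named, as were the highest and lowest of each further list, of which some are not reported here. Ratios of 2 libraries have exact conditional binomial (Clopper-Pearson) 95% intervals, which cover counting error only. GC content and transcript lengths came from GENCODE M21 (GRCm38), which matched 44895 of 47055 names, promoters from RefSeq, and near-identical copies from BLAST 2.17.0. GC trends were removed per library by a smooth fit over genes, which left out 242 genes without a GC value. Strand-specific counting was checked on 32 antisense genes within exons of other genes, which had 0.42% of the counts of their hosts. Markers of other cells were summed: T-cell markers had 30.0 to 52.9 CPM at rest and 6.28 to 20.1 after LPS, myeloid 132 to 312 and 14.9 to 27.0, NK-cell 8.87 to 12.5 and 0.402 to 3.81, plasma cell 549.6 to 2176 and 611 to 1576, and B-cell markers 3802 to 7004 and 3470 to 8984.

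The alternatives were other scalings, filters and tools (DESeq2 1.42.0), removal of the GC trend, no genotype term and leaving out genotypes or libraries. The LPS effect of the additive edgeR model was tested on simulated data with known changes between culture states. The genotype comparisons, DESeq2 and the removal of the GC trend were not tested in this way. The genes and lists were chosen with earlier results of these data known.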

Additional observations from a re-analysis of the deposited data

Results flagged for a closer look

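The log2 ratio of a mutant to the wt library changed sign between the culture states for several replication genes, with counting intervals that exclude 0 on both sides, and the change from resting to LPS was at least 2-fold. For Eμ-deficient cells the change was -2.00 for Rrm2 (from 1.66 at rest to -0.34 after LPS), -1.81 for Gmnn, -1.79 for Rpa3, -1.63 for Tk1, -1.50 for Cdc6, -1.12 for Pcna and -1.11 for Mcm10. For 3′RR-deficient cells it was -1.53 for Gmnn, -1.50 for Orc4, -1.41 for Rpa3, -1.35 for Cdc6, -1.21 for Pola1 and -1.06 for Rrm2. Each of these genes was above wt at rest and below wt after LPS. The share of all tested genes that changed sign in this way was not counted, so the changes cannot be called particular to replication genes. With the GC trend removed, 6 of the 7 Eμ-deficient changes still turned sign and passed 2-fold, with differences of -2.12 for Tk1, -1.89 for Gmnn, -1.83 for Rrm2, -1.54 for Cdc6, -1.19 for Rpa3 and -1.10 for Mcm10, and Pcna had -0.90. Of the 6 3′RR-deficient changes, 2 did so, Gmnn (-1.59) and Cdc6 (-1.37). The others had -0.74 (Rrm2), -0.46 (Rpa3), -0.37 (Pola1) and -0.17 (Orc4), and Rrm2 and Rpa3 were then at or above wt after LPS (0.093 and 0.00031). The differences were not tested, since there is 1 library per genotype and state, and both mutants share the wt libraries, so that a single wt library enters both sets. The resting Eμ-deficient library also had higher erythroid (20016 CPM in 10 markers) and plasma cell (2176 CPM) marker sums than the other libraries, whose part in these values was not tested.

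The LPS response of Orc4 had opposite signs in wt cells (0.79) and in 3′RR-deficient cells (-0.71), a difference of -1.50 that was not tested. With the GC trend removed these responses were 0.18 and 0.015, so that the signs were no longer opposite, and the ratio of the stimulated 3′RR-deficient to the wt library was -0.048.

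The spike-in RNAs, which the comparisons do not use, were not constant between the LPS-stimulated 3′RR-deficient and wt libraries: over 35 of them the log2 ratios had an SD of 1.27, against 0.16 in the resting libraries of the same genotypes. For LPS over resting the SD was 0.78 in wt, 0.13 in Eμ-deficient and 0.63 in 3′RR-deficient cells. Between Eμ-deficient and wt libraries it was 0.48 at rest and 0.44 after LPS.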

How the results depend on the processing

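The count of genes called higher after LPS was 44 and ran from 39 (without the Eμ-deficient libraries) to 46 (GC trend removed), with 43 under scaling by total counts. It was 39 to 44 with 1 genotype left out, and 0 genes were called lower in these analyses. Without the resting Eμ-deficient or the stimulated 3′RR-deficient library (both chosen after seeing the data), the median log2 fold change of the 50 genes was 2.22 and 2.08. The other library of that genotype then has no partner, so that these fits rest on the remaining genotypes. There was 1 library per genotype and state, and the labels give no replicate numbers to pair libraries by mouse. The genotype term paired the LPS and resting libraries of each genotype, and without it 43 genes were called. Of 650 fits of single genes, 626 kept direction and side of the threshold, 15 lost the call (Cdc7, Gins4, Pold1, Pold3 and Rfc2, each of them without the resting Eμ-deficient library) and 3 gained it (Orc3 and Rfc1). Orc4 changed sign, with log2 fold changes of 0.053 without the genotype term, 0.0997 with the GC trend removed, and -0.43 to 0.32 with a genotype or library left out. Scaling by total counts moved the LPS median of all genes from -0.03 to -0.16 and turned the calls from 3016 higher and 2975 lower to 2480 and 3276. It moved the median of the 50 genes in wt cells to 1.98, put 1 of them 2-fold lower after LPS in wt cells, 1 lower in resting 3′RR-deficient cells, and left 2 higher in resting Eμ-deficient cells, as log2(CPM + 1) did (2). With the GC trend removed, 0 were 2-fold lower in resting Eμ-deficient cells, and 1 higher and 0 lower in stimulated 3′RR-deficient cells. Scaling without immunoglobulin genes put 1 lower in stimulated Eμ-deficient cells. Without a filter on low counts, 1 gene (Pold1) was called for the 3′RR. The cause of these changes was not tested. Genes with few counts, such as Gins1, Gins2 and Pole2 at rest, have the widest intervals.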
